A study of Mus musculus with 18 samples.

Results

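Expression of 9 genes of bone morphogenetic protein (BMP) signaling was followed in transplanted and cultured fibroblasts from 3 mouse organs. They were chosen by symbol, as the ligands *Bmp2*, *Bmp4* and *Bmp6*, the secreted antagonists *Grem1* and *Nog*, the receptor *Acvrl1* and the target genes *Id1*, *Id2* and *Id3*. All 9 were found among the 38924 gene rows of the table, and all 9 were among the 16577 genes that passed the filter on low counts. Fibroblasts of heart, kidney and tail were isolated from male mice of the Rosa mT/mG reporter on a C57BL/6 background, 10 weeks of age, whose cells carry a red fluorescent reporter. After 10 days in culture, 400000 to 500000 cells were placed on gelatin foam under the kidney capsule of C57BL/6J recipients aged 10 to 11 weeks and recovered 3 days later (HFs, KFs and TFs). The remaining cells were plated again as cultured controls (HFc, KFc and TFc). There were 3 libraries in each of the 6 groups. Transplanted cells had been sorted for the red reporter and against CD45, a leukocyte surface protein, and all of them, tail and heart cells included, had been placed in kidney tissue. The controls stayed in culture. Transplantation, the end of culture, recovery and sorting therefore cannot be told apart in HFs/HFc, KFs/KFc or TFs/TFc.

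BMPs are secreted dimers that bind a pair of type I and type II receptor kinases, and the active receptors phosphorylate SMAD1, SMAD5 and SMAD9, which enter the nucleus with SMAD4. Gremlin 1, the product of *Grem1*, and Noggin, the product of *Nog*, bind BMPs outside the cell and keep them from their receptors. *Id1*, *Id2* and *Id3* are direct targets of the pathway, and their proteins bind E proteins and hold them off DNA. In fibroblasts BMP signaling is best known for opposing the actions of transforming growth factor beta, while *Acvrl1*, which encodes the type I receptor ALK1, is best known from the endothelium.

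Promoter sequences are shown for *Id2* and *Id3*, because both are Id genes and yet behaved differently after transplantation. Each line gives the 250 bases before the RefSeq start on assembly GRCm38.p6, written in the direction of transcription. Capitals mark GGCGCC, which reads the same on both strands, or GGAGCC, which reads GGCTCC on the opposite strand. These are short GC-rich words known to be bound by BMP-activated SMADs. The *Id2* window is chr12:25096093-25096342 on the minus strand and the *Id3* window is chr4:136143572-136143821 on the plus strand. Both windows lie inside the GENCODE spans of these genes given below, whose starts lie upstream of the RefSeq starts used here. By the GENCODE starts they would not be upstream sequence.
Id2: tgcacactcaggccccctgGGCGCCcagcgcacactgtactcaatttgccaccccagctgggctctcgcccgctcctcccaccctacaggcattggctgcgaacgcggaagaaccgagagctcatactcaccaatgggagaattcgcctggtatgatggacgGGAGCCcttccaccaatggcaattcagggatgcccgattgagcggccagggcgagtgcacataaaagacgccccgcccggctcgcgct
Id3: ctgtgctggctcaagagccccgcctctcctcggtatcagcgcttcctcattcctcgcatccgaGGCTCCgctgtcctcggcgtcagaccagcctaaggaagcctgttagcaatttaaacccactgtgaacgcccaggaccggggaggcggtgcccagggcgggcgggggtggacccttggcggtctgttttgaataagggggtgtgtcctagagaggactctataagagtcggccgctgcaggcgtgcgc
The *Id2* window held GGCGCC beginning 231 bases before the start and GGAGCC beginning 88 bases before it. The *Id3* window held GGCTCC beginning 187 bases before the start and no GGCGCC. Among 32851 RefSeq windows of the same length, 9.59% held GGCGCC and 26.0% held GGAGCC on either strand, so each match is a description of the window and not of a bound site. RefSeq entries were matched for 5 of the 9 genes, namely *Bmp4*, *Bmp6*, *Grem1*, *Id2* and *Id3*.

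The libraries held 17927838 to 32245168 counts, so that a gene with 3 counts stood at 0.0930 to 0.167 CPM (counts scaled to the size of the library). All levels below are CPM after scaling by the trimmed mean of M values. Of the 18 libraries 2 stood apart. KFs replicate 3 held *Xist* at 1487 CPM and summed Y-linked genes at 0.719 CPM, whereas the other 17 libraries reached at most 0.404 and at least 175 CPM, which goes against the male donors of the labels. In KFs replicate 3 the 6 epithelial and keratinocyte markers summed to 118 CPM, against 7.84 and 3.78 in KFs replicates 1 and 2. Its 8 fibroblast markers summed to 19476 CPM, against 94515 and 71315 in those libraries, and its 8 macrophage markers to 11.6 CPM against 128 and 98.7. HFs replicate 2 held proximal tubule markers at a sum of 1177 CPM, against 134 and 74.8 CPM in HFs replicates 1 and 3. The main results that rest on KFs are therefore given with and without it. The fibroblast markers summed to between 14846 and 20617 CPM in cultured and between 19476 and 124811 CPM in transplanted libraries, and no library lacked them.

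**Figure D1:**
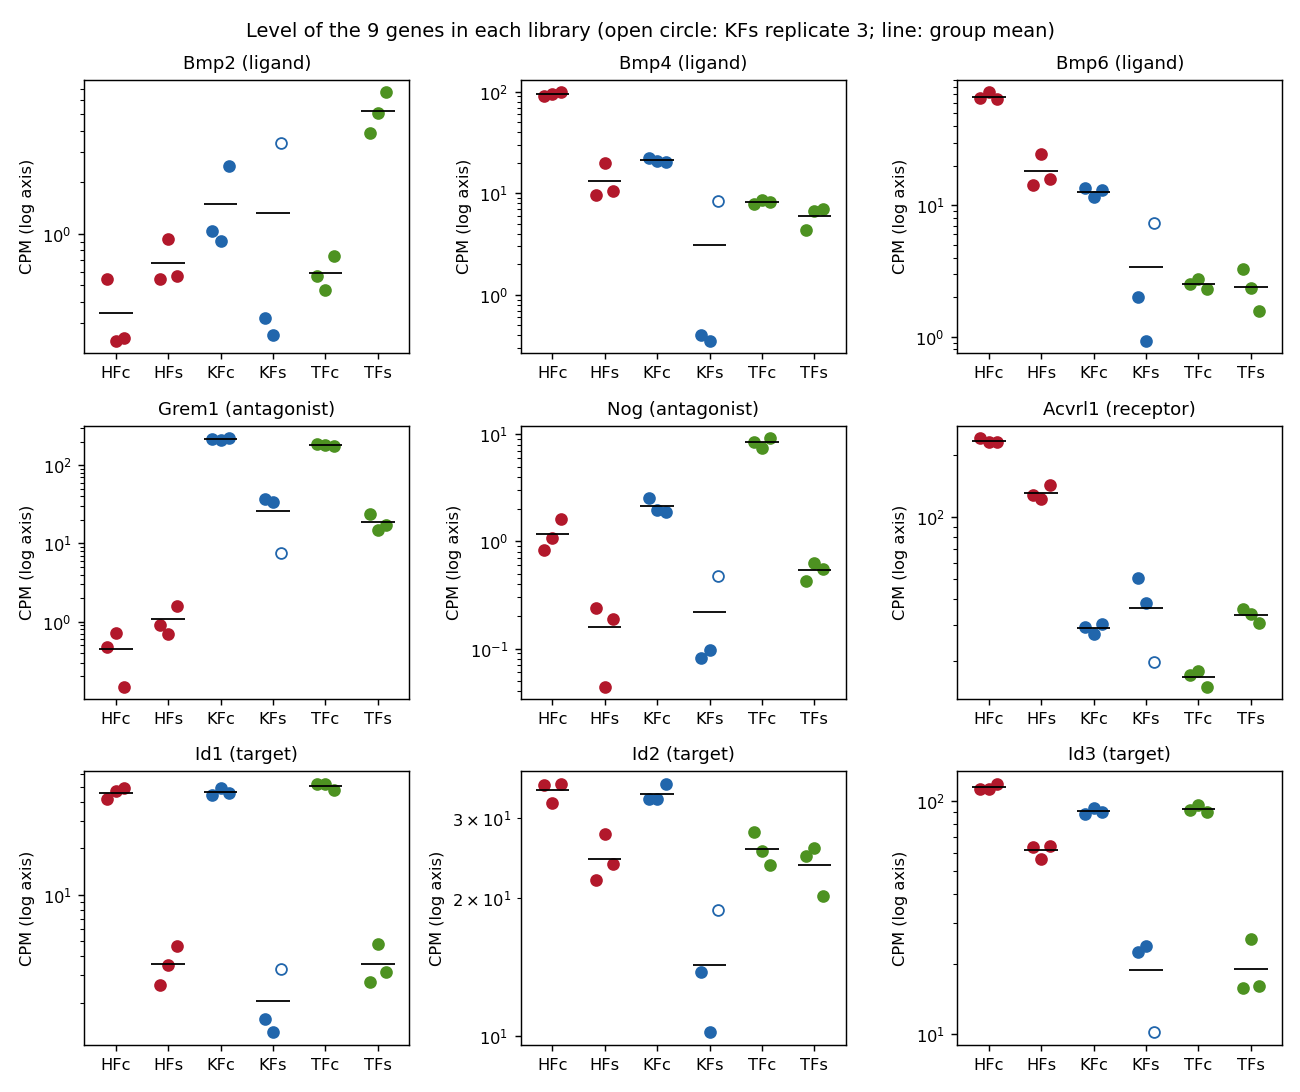
Each panel shows 1 gene, with the 6 groups on the x axis and its level in CPM on a logarithmic y axis. Points are libraries, lines are group means, and the open circle is KFs replicate 3. Id1 was 41.3 to 52.2 CPM in all 9 cultured libraries and 1.28 to 4.81 CPM in all 9 transplanted ones, while Grem1 stayed under 1.60 CPM in every heart library.

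*Id1* and *Nog* were called lower after transplantation in fibroblasts of all 3 organs, and *Id3* and *Grem1* in those of kidney and tail. *Bmp4* and *Bmp6* were called lower in heart and kidney fibroblasts, and *Id2* in kidney fibroblasts. *Bmp2* and *Acvrl1* were called higher, both in tail fibroblasts. A gene was called here at an adjusted p under 0.05 in edgeR's quasi-likelihood test over all genes with a log2 fold change above 1 or below -1. In HFs/HFc 0 of the 9 genes were called higher and 4 lower, where 27.7% of all genes tested were called. In KFs/KFc 0 were called higher and 7 lower, where 22.6% of all genes were called. In TFs/TFc 2 were called higher and 4 lower, where 16.5% of all genes were called. Of the 16577 genes tested, 3038 were called higher and 1547 lower in HFs/HFc, 2429 and 1325 in KFs/KFc, and 1827 and 916 in TFs/TFc. Without KFs replicate 3 the counts were 1 higher and 4 lower in HFs/HFc (29.0% of all genes called), 0 and 8 in KFs/KFc (23.2%) and 1 and 4 in TFs/TFc (18.3%). The median log2 fold change of the 9 genes was -0.90 in HFs/HFc, -2.26 in KFs/KFc and -0.46 in TFs/TFc, beside 0.05, 0.09 and 0.00 over all genes tested. By adjusted p alone 7 of the 9 were called in HFs/HFc, where 56.4% of all genes were, and 6 in TFs/TFc, where 38.8% were. Because these are bulk samples, fewer cells of a type and less RNA per cell cannot be told apart.

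**Figure D2:**
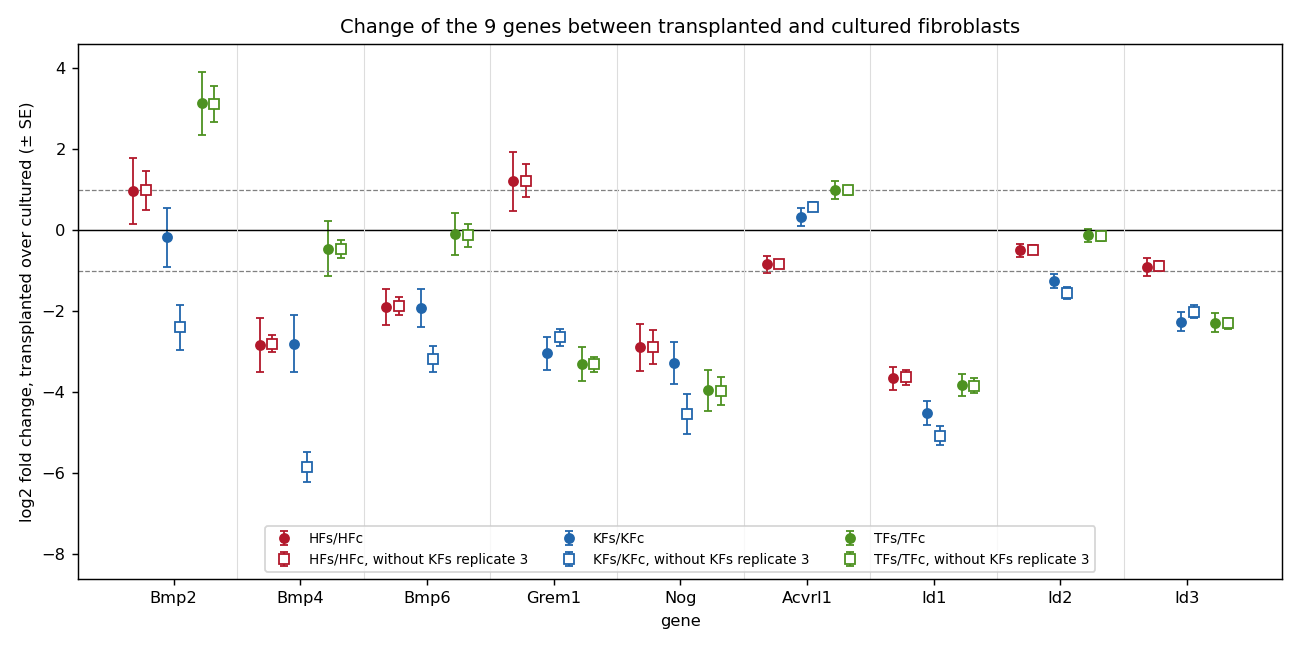
Log2 fold change of each gene between transplanted and cultured fibroblasts, with its SE, for 3 libraries against 3. Filled circles use all 18 libraries and open squares leave out KFs replicate 3, and the dashed lines mark a log2 fold change of 1 in either direction. Id1 and Nog lie below the lower line in all 3 organs, and Bmp4 in KFs/KFc moves from -2.80 to -5.83 when that library is left out.

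*Id1* (chr2:152736251-152737410, plus strand), an inhibitor of basic helix-loop-helix factors, fell in fibroblasts of all 3 organs. Its levels were 41.3, 46.8 and 49.0 CPM in HFc and 2.58, 3.52 and 4.63 CPM in HFs. In kidney fibroblasts *Id1* stood at 44.3, 49.4 and 45.4 CPM in KFc and at 1.58, 1.28 and 3.32 CPM in KFs. In tail fibroblasts the levels were 51.9, 52.2 and 47.8 CPM in TFc and 2.73, 4.81 and 3.18 CPM in TFs. No transplanted library reached the lowest cultured one, and the transplanted libraries held between 2.76% and 10.1% of the cultured mean of their organ. *Id1* fell by 3.65 ± 0.28 (log2, SE) in HFs/HFc (edgeR adjusted p = 6.7e-08), by 4.50 ± 0.29 in KFs/KFc (edgeR adjusted p = 2.1e-08) and by 3.82 ± 0.28 in TFs/TFc (edgeR adjusted p = 1.3e-07). The 3 cultured groups overlapped in their libraries and so did HFs and TFs, the next lower groups in the order of means. KFs replicates 1 and 2 lay below every HFs and TFs library, and without KFs replicate 3 the fall in KFs/KFc was 5.07 ± 0.24.

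*Id3* (chr4:136143497-136145755, plus strand), whose protein acts in the same way, was highest in heart fibroblasts, by a wider margin after transplantation than in culture. In culture *Id3* stood at 113, 113 and 119 CPM in HFc, at 88.4, 93.3 and 90.0 CPM in KFc and at 92.0, 96.8 and 90.1 CPM in TFc. After transplantation the levels were 63.6, 56.6 and 64.4 CPM in HFs, 22.5, 23.9 and 10.2 CPM in KFs and 15.8, 25.6 and 16.1 CPM in TFs. Every HFs library exceeded every KFs and TFs library by more than a factor of 2, whereas KFs and TFs overlapped. *Id3* fell by 2.26 ± 0.24 in KFs/KFc (edgeR adjusted p = 2.1e-06) and by 2.28 ± 0.24 in TFs/TFc (edgeR adjusted p = 3.6e-06). In HFs/HFc the log2 fold change was -0.90 ± 0.23 (edgeR adjusted p = 0.0032), within the fold limit, although the 2 groups did not overlap. The response itself differed, by 1.37 ± 0.32 between heart and tail (edgeR adjusted p = 0.0067) and by 1.35 ± 0.32 between heart and kidney fibroblasts (edgeR adjusted p = 0.0060). Without KFs replicate 3 these differences were 1.41 ± 0.18 and 1.12 ± 0.19, and *Id3* was 4.01-fold lower in KFs/KFc.

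*Id2* (chr12:25093799-25097140, minus strand), known for its part in lymphoid development and in the cell cycle, had the smallest transplant changes of the Id genes. It stood at 35.3, 32.2 and 35.6 CPM in HFc and at 21.9, 27.6 and 23.7 CPM in HFs. The kidney libraries held *Id2* at 32.9, 33.0 and 35.4 CPM in KFc and at 13.8, 10.2 and 18.9 CPM in KFs. In tail fibroblasts it was 27.9, 25.4 and 23.6 CPM in TFc and 24.7, 25.8 and 20.2 CPM in TFs, ranges that overlap. *Id2* was called in KFs/KFc alone, where it fell by 1.24 ± 0.17 (edgeR adjusted p = 2.5e-05), and by 1.54 ± 0.14 without KFs replicate 3. In HFs/HFc the log2 fold change was -0.49 ± 0.17 (edgeR adjusted p = 0.020), within the fold limit, although the 2 groups did not overlap. In TFs/TFc it was -0.12 with a 95% interval from -0.45 to 0.21. The kidney response differed from that of tail by -1.12 ± 0.24 (edgeR adjusted p = 0.0069), and the heart response from that of kidney by 0.75 ± 0.24 (edgeR adjusted p = 0.029), and these differences were -1.40 ± 0.18 and 1.07 ± 0.18 without KFs replicate 3.

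The ratios among the Id genes therefore differed between cultured and transplanted libraries. The ratio of *Id1* to *Id2* in CPM was 1.17 to 2.06 in the 9 cultured libraries and 0.110 to 0.196 in the 9 transplanted ones, with no overlap. The ratio of *Id3* to *Id2* was 2.54 to 3.82 in cultured libraries, 2.05 to 2.90 in HFs, 0.639 to 0.993 in TFs and 0.540 to 2.35 in KFs, where KFs replicate 3 was the lowest. Per kilobase of exon, the mean level in HFc was 64.3 CPM for *Id3*, 39.4 for *Id1* and 14.1 for *Id2*. In HFs the order was *Id3* at 34.4, *Id2* at 10.0 and *Id1* at 3.09 CPM per kilobase, and in TFs it was *Id3* at 10.7, *Id2* at 9.66 and *Id1* at 3.08.

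The ligand *Bmp4* (chr14:46383520-46390669, minus strand), which patterns mesoderm and is made by many mesenchymal cells, was highest in cultured heart fibroblasts. It stood at 91.2, 94.4 and 99.2 CPM in HFc and at 9.74, 19.9 and 10.5 CPM in HFs. In kidney fibroblasts it was 22.2, 20.8 and 20.2 CPM in KFc, but 0.404, 0.352 and 8.47 CPM in KFs, so that KFs replicate 3 alone set the group mean of 3.08 CPM. The tail libraries held 7.92, 8.59 and 8.28 CPM in TFc and 4.33, 6.63 and 7.04 CPM in TFs. *Bmp4* fell by 2.82 ± 0.67 in HFs/HFc (edgeR adjusted p = 0.0022) and by 2.80 ± 0.71 in KFs/KFc (edgeR adjusted p = 0.0041). Without KFs replicate 3 the falls were 2.80 ± 0.21 and 5.83 ± 0.37, the second of them 57.0-fold against 6.95-fold with it. HFs replicate 2 was the highest HFs library for *Bmp4*, and without it the fall in HFs/HFc was 3.18. In TFs/TFc the log2 fold change was -0.46 ± 0.67 (edgeR adjusted p = 0.62), with no call either way. The genes *Gm15217* and *Gm15222* overlap *Bmp4* on the opposite strand, and neither exceeded 15 counts in any library.

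*Bmp6* (chr13:38345107-38500302, plus strand), a ligand known for its control of hepcidin in iron balance, followed *Bmp4* in its order of heart, kidney and tail in culture. It stood at 65.2, 72.6 and 63.9 CPM in HFc and at 14.2, 24.7 and 15.8 CPM in HFs. In KFc it was 13.5, 11.5 and 13.1 CPM and in KFs 2.02, 0.929 and 7.31 CPM, with KFs replicate 3 again the highest of its group, as HFs replicate 2 was in HFs. In tail fibroblasts the levels lay between 2.32 and 2.75 CPM in TFc and between 1.57 and 3.26 CPM in TFs, and overlapped. *Bmp6* fell by 1.88 ± 0.44 in HFs/HFc (edgeR adjusted p = 0.0020) and by 1.91 ± 0.47 in KFs/KFc (edgeR adjusted p = 0.0035), the latter by 3.18 ± 0.31 without KFs replicate 3 and the former by 2.11 without HFs replicate 2. In TFs/TFc its log2 fold change was -0.09 with a 95% interval from -1.11 to 0.92. *Txndc5*, on the opposite strand, overlaps *Bmp6* and reached 13163 counts in a library. The counting was stated to use strand.

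*Bmp2* (chr2:133552159-133562885, plus strand), a ligand best known for bone induction, was low throughout and moved the other way in tail fibroblasts. It stood at 0.564, 0.471 and 0.745 CPM in TFc and at 3.85, 5.09 and 6.70 CPM in TFs, which was the highest group. In TFs/TFc *Bmp2* rose by 3.13 ± 0.78 (edgeR adjusted p = 0.0051), or 8.76-fold. In heart fibroblasts it was 0.546, 0.237 and 0.246 CPM in HFc and 0.541, 0.925 and 0.569 CPM in HFs, on 5 to 21 counts a library. In KFc it was 1.04, 0.907 and 2.49 CPM and in KFs 0.323, 0.256 and 3.40 CPM, a range that spans all KFc libraries. With KFs replicate 3 the log2 fold change in KFs/KFc was -0.17 ± 0.72 (edgeR adjusted p = 0.86), and without it *Bmp2* fell by 2.39 ± 0.55 (edgeR adjusted p = 0.0019).

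Of the antagonists, *Grem1* (chr2:113746164-113758646, minus strand) divided heart from the other organs more than any other of the 9 genes. It stood at 214, 210 and 223 CPM in KFc and at 187, 183 and 176 CPM in TFc. In HFc it was 0.474, 0.711 and 0.147 CPM, on 3 to 21 counts a library, and in HFs 0.901, 0.705 and 1.59 CPM. After transplantation *Grem1* was 37.0, 34.2 and 7.55 CPM in KFs and 23.7, 14.9 and 17.3 CPM in TFs. *Grem1* fell by 3.04 ± 0.41 in KFs/KFc (edgeR adjusted p = 2.4e-05) and by 3.29 ± 0.42 in TFs/TFc (edgeR adjusted p = 2.4e-05). In HFs/HFc its log2 fold change was 1.21 ± 0.72 (edgeR adjusted p = 0.17), and without KFs replicate 3 *Grem1* rose there by 1.23 ± 0.40 (edgeR adjusted p = 0.015), although the libraries overlapped. The fall in KFs/KFc was then 2.64 ± 0.20. The heart response differed from that of tail by 4.50 ± 0.82 (edgeR adjusted p = 0.0013) and from that of kidney by 4.24 ± 0.82 (edgeR adjusted p = 0.0016), or by 3.87 ± 0.44 without KFs replicate 3. With 3 to 21 counts a library in HFc, a fall as large as in kidney or tail could not have been measured in heart. These differences are limited by that low level. Even after its fall, *Grem1* in every KFs and TFs library was more than 4 times its level in any heart library, with 7.55 CPM in KFs replicate 3 as the lowest of the former and 1.59 CPM as the highest of the latter.

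*Nog* (chr11:89300638-89302332, minus strand) fell in all 3 organs, and was the lower antagonist in cultured kidney and tail fibroblasts per kilobase of exon. It stood at 8.51, 7.49 and 9.25 CPM in TFc and at 0.428, 0.636 and 0.551 CPM in TFs. In kidney fibroblasts *Nog* was 2.54, 1.95 and 1.89 CPM in KFc and 0.0808, 0.0961 and 0.479 CPM in KFs, the first pair on 2 and 3 counts. In heart fibroblasts it was 0.838, 1.08 and 1.62 CPM in HFc and 0.240, 0.0441 and 0.190 CPM in HFs, on 1 to 5 counts. *Nog* fell by 2.89 ± 0.57 in HFs/HFc (edgeR adjusted p = 0.00049), by 3.28 ± 0.52 in KFs/KFc (edgeR adjusted p = 0.00011) and by 3.95 ± 0.50 in TFs/TFc (edgeR adjusted p = 2.2e-05). None of its 3 differences in response passed the test, and the one between heart and tail was 1.06 with a 95% interval from -0.50 to 2.61. With KFs replicate 3 left out, both remaining KFs libraries lay at or under 3 counts, and no fold is given.

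*Acvrl1* (chr15:101128522-101145336, plus strand), the receptor, was highest in heart fibroblasts in both states. It stood at 243, 231 and 233 CPM in HFc and at 128, 123 and 144 CPM in HFs. In kidney fibroblasts *Acvrl1* was 29.3, 26.9 and 30.3 CPM in KFc and 50.6, 38.3 and 19.7 CPM in KFs, where KFs replicate 3 was the lowest. In tail fibroblasts it was 17.0, 17.9 and 15.0 CPM in TFc and 35.8, 33.7 and 30.6 CPM in TFs. *Acvrl1* rose by 1.00 ± 0.22 in TFs/TFc (edgeR adjusted p = 0.0021), just past the fold limit, and without KFs replicate 3 the value was 0.98 ± 0.10, just short of it, as it was in 5 other fits that left out a library. In HFs/HFc the log2 fold change was -0.84 ± 0.21 (edgeR adjusted p = 0.0032), within the limit, with no overlap between the groups. The heart response differed from that of tail by -1.84 ± 0.30 (edgeR adjusted p = 0.00058) and from that of kidney by -1.17 ± 0.30 (edgeR adjusted p = 0.0097), or by -1.40 ± 0.15 without KFs replicate 3. Endothelial markers moved with the groups as well. Of 10 such markers 9 were called higher in HFs/HFc, 5 higher and 1 lower in KFs/KFc, and 4 higher in TFs/TFc. Among all 16577 genes tested 3038, 2429 and 1827 were called higher in these comparisons. *Tie1* and *Plvap*, 2 of the markers, were at most 0.298 CPM in any cultured library, so that such calls rest on few counts. The 10 markers summed to between 43.9 and 57.6 CPM in cultured and between 47.5 and 95.6 CPM in transplanted libraries. *Cdh5*, which encodes VE-cadherin, was at most 0.338 CPM in HFc and 3.43 CPM in HFs, and *Emcn*, a further endothelial gene, was at 0 in all HFc and TFc libraries, whereas *Pecam1* stood between 20.4 and 29.8 CPM in all 18 libraries. The part of endothelial RNA in the changes of *Acvrl1* was not tested.

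In culture *Bmp4*, *Bmp6*, *Grem1*, *Nog* and *Acvrl1* were each called in at least 1 comparison of organs, and *Bmp2*, *Id1*, *Id2* and *Id3* in none. Differences between organs and between responses were called at an adjusted p under 0.05 in the same test. In HFc/TFc 3 of the 9 genes were called higher (*Bmp4*, *Bmp6* and *Acvrl1*) and 2 lower (*Grem1* and *Nog*), where 41.9% of all genes were called. *Bmp6* was 26.5-fold higher in HFc (log2 4.73 ± 0.51, edgeR adjusted p = 2.6e-06), *Acvrl1* 14.2-fold (log2 3.82 ± 0.24, edgeR adjusted p = 5.9e-09) and *Bmp4* 11.5-fold (log2 3.52 ± 0.69, edgeR adjusted p = 0.00075). *Grem1* differed by -8.58 ± 0.59 on the log2 scale (edgeR adjusted p = 1.8e-08) and *Nog* by -2.84 ± 0.46 (edgeR adjusted p = 0.00014). In KFc/TFc *Bmp6* and *Acvrl1* were called higher and *Nog* lower, where 36.4% of all genes were called. *Bmp6* differed there by 2.32 ± 0.48, *Acvrl1* by 0.79 ± 0.22 and *Nog* by -1.98 ± 0.44, while *Grem1* differed by 0.25 with a 95% interval from -0.50 to 0.99. In HFc/KFc the same 3 genes as in HFc/TFc were higher and *Grem1* lower, where 29.2% of all genes were called, and *Grem1* differed there by -8.82 ± 0.59. For *Id1* the 95% interval of the log2 difference ran from -0.62 to 0.33 in HFc/TFc, from -0.60 to 0.35 in KFc/TFc and from -0.50 to 0.45 in HFc/KFc. Without KFs replicate 3, which no cultured comparison contains but which enters the shared estimate of spread, 6 genes were called in each cultured comparison, beside 48.6%, 43.8% and 36.3% of all genes. *Id2* was then called higher in HFc/TFc and KFc/TFc, by 0.40 ± 0.12 and 0.42 ± 0.12.

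After transplantation *Bmp6*, *Acvrl1* and *Id3* were called higher in heart fibroblasts than in those of both other organs, and *Grem1* lower. In HFs/TFs *Bmp6*, *Acvrl1* and *Id3* were called higher and *Bmp2*, *Grem1* and *Nog* lower, where 23.1% of all genes were called. *Bmp6* differed by 2.94 ± 0.50, *Acvrl1* by 1.98 ± 0.22, *Id3* by 1.68 ± 0.24, *Bmp2* by -2.93 ± 0.78, *Grem1* by -4.08 ± 0.52 and *Nog* by -1.78 ± 0.60. In HFs/KFs 6 genes were called higher and *Grem1* lower, where 33.2% of all genes were called, and *Id3* differed by 1.70 ± 0.23 and *Id2* by 0.78 ± 0.17, and without KFs replicate 3 by 1.42 ± 0.15 and 1.05 ± 0.14. In KFs/TFs *Id1* and *Id2* were called lower, where 29.1% of all genes were called, with differences of -0.81 ± 0.29 (edgeR adjusted p = 0.0499) and -0.72 ± 0.17 (edgeR adjusted p = 0.0048). Leaving out 1 library at a time lost the call of *Id1* in KFs/TFs in 14 of 18 fits, that of *Id1* in HFs/KFs in 11 and that of *Nog* in HFs/TFs in 12. KFs/TFs rested most on KFs replicate 3. Without it 2 genes were called higher in KFs/TFs (*Grem1* and *Acvrl1*) and 5 lower (*Bmp2*, *Bmp4*, *Nog*, *Id1* and *Id2*), beside 35.1% of all genes, and *Bmp4* moved from -0.99 ± 0.71 to -3.99 ± 0.39. HFs/TFs then had 7 genes called and 31.0% of all genes, and HFs/KFs 7 and 38.8%.

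**Figure D3:**
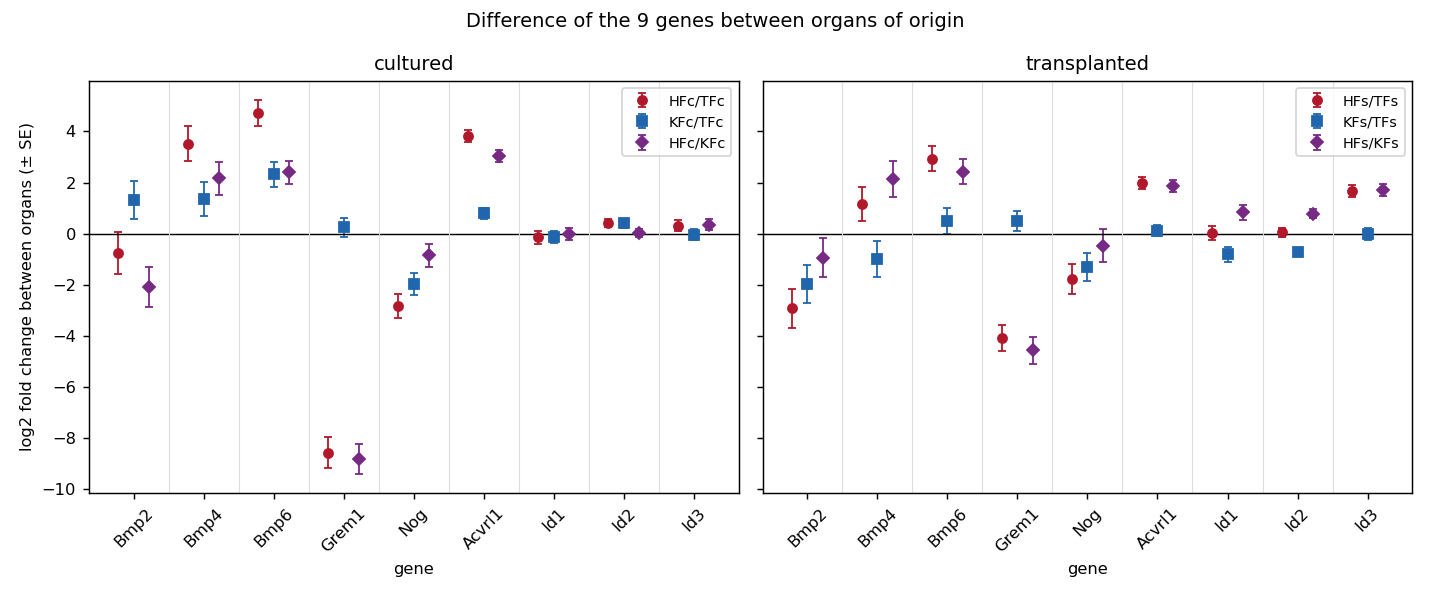
Log2 fold change between organs for each gene, with its SE, in cultured (left) and transplanted fibroblasts (right), over all 18 libraries. Grem1 lies below -8 in both comparisons with cultured heart fibroblasts, Id1, Id2 and Id3 lie within 0.50 of 0 in culture, and Id3 lies near 1.7 in both comparisons with transplanted heart fibroblasts.

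The responses to transplantation differed between organs for *Grem1*, *Acvrl1*, *Id2* and *Id3*, with the values given above. Between heart and tail fibroblasts 3 of the 9 genes were called, where 22.8% of all genes were called. Between kidney and tail fibroblasts 1 was called, where 11.1% were, and between heart and kidney fibroblasts 4 were called, where 26.2% were. Comparisons that share a group of libraries are not independent of each other. Without KFs replicate 3 the counts were 6 (beside 32.3% of all genes), 5 (21.4%) and 8 (35.2%). For *Bmp4* the difference between the heart and kidney responses was -0.03 ± 0.99 with that library and 3.03 ± 0.45 without it (edgeR adjusted p = 0.00012), and between the heart and tail responses it was -2.37 ± 0.93 and -2.34 ± 0.30 (edgeR adjusted p = 0.081 and 3.4e-05).

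Further genes of the pathway were counted from 6 lists with 57 genes, of which 51 were tested. In HFs/HFc 10 were called higher and 11 lower, in KFs/KFc 5 and 14, and in TFs/TFc 5 and 14, where 27.7%, 22.6% and 16.5% of all genes were called. Their median log2 fold changes were 0.14, -0.14 and -0.09. Without KFs replicate 3 the counts were 10 and 11, 3 and 15, and 6 and 14 of 52 tested. In all 3 comparisons 7 genes fell, namely *Atoh8*, *Crim1*, *Id4*, *Msx2*, *Smad6*, *Smad7* and *Smad9*. *Chrdl1* was called higher in all 3. In KFs/KFc its call rests on 12, 0 and 11 counts in KFs against 1, 0 and 3 in KFc, and the libraries overlapped. These 8 genes, and the further pathway genes named below by their place in a list, were in part named after their values were seen.

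Among the SMADs and intracellular inhibitors, *Smad6*, an inhibitory SMAD that is itself induced by BMP signaling, had the largest fall of the list in HFs/HFc and KFs/KFc. Its levels were 155, 151 and 158 CPM in HFc and 22.4, 26.5 and 25.3 CPM in HFs. *Smad6* fell by 2.65 ± 0.15 in HFs/HFc, by 3.54 ± 0.16 in KFs/KFc and by 2.70 ± 0.16 in TFs/TFc. *Smad7*, the other inhibitory SMAD, fell by 1.01 ± 0.17, 1.42 ± 0.17 and 1.85 ± 0.17, and *Smad9*, a receptor-activated SMAD, by 1.63 ± 0.23, 2.79 ± 0.25 and 3.16 ± 0.24. Of the 12 genes of this list 3, 3 and 6 were called lower in the 3 comparisons and 0 higher. The shares of all genes called there were 27.7%, 22.6% and 16.5%. The signal transducers *Smad1*, *Smad5* and *Smad4* stayed within a log2 fold change of 0.69 in either direction. The falls in KFs/KFc without KFs replicate 3 were 3.38 ± 0.13 for *Smad6*, 1.66 ± 0.16 for *Smad7* and 2.79 ± 0.28 for *Smad9*, and 4 genes of the list were called lower.

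Of the 6 further target genes, 3 were called lower in HFs/HFc, 4 in KFs/KFc and 3 in TFs/TFc, and 0 higher. Among all genes tested 27.7%, 22.6% and 16.5% were called in these comparisons. *Id4*, the fourth Id gene, was 57.4, 51.5 and 50.4 CPM in KFc and 6.91, 1.99 and 0.759 CPM in KFs, and fell by 4.05 ± 0.48 there and by 3.65 ± 0.35 without KFs replicate 3. It fell by 1.64 ± 0.48 in HFs/HFc and by 3.41 ± 0.48 in TFs/TFc. *Atoh8*, a helix-loop-helix factor known as a BMP target, fell by 1.56 ± 0.29, 3.30 ± 0.32 and 4.14 ± 0.33, in the organ order heart, kidney and tail. Its response differed between heart and tail by 2.58 ± 0.42 and between heart and kidney by 1.74 ± 0.41, in the same direction as for *Id3*. *Atoh8* fell by 2.95 ± 0.16 in KFs/KFc without KFs replicate 3, and the difference between heart and kidney was 1.41 ± 0.19. *Msx2* was at 0 in all 3 HFs libraries and at 0.372 to 0.546 CPM in HFc, where the group mean was 3.08-fold a floor of 3 counts per library. The E proteins bound by Id proteins (*Tcf3*, *Tcf4* and *Tcf12*) stayed within the fold limit, between -0.05 and 0.62 on the log2 scale.

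**Figure D4:**
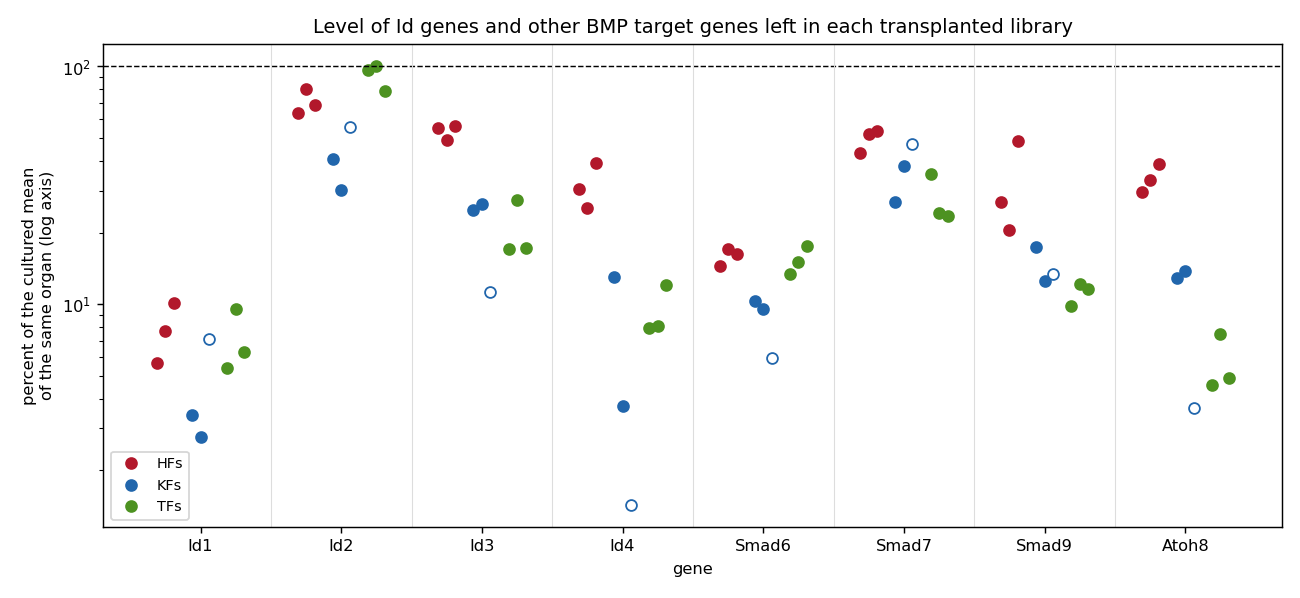
Level of each gene in each transplanted library as a percent of the mean of the same organ's cultured libraries, on a logarithmic axis. The dashed line is 100%, and open circles are KFs replicate 3. Id1 retained at most 10.1%, Id2 at least 30.1%, and Id3 and Atoh8 retained most in heart fibroblasts, 49.1% to 55.9% and 29.5% to 38.9%.

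Among the other ligands, *Gdf6*, a BMP family member known from joint and skeletal patterning, had the organ order of *Bmp4* and *Bmp6*. It stood at 437 to 446 CPM in HFc, 42.9 to 49.5 CPM in KFc and 3.03 to 4.12 CPM in TFc, and fell by 3.08 ± 0.26 in HFs/HFc and by 2.45 ± 0.27 in KFs/KFc. *Bmp8a* fell by 4.31 ± 0.73 in KFs/KFc, and *Bmp3* rose by 4.21 ± 0.86 in TFs/TFc from a mean of 0.0526 CPM. *Bmp7*, known for its part in nephron formation, was at 0 in all HFc libraries and at 0.240 to 1.06 CPM in HFs. Its group mean in HFs was 4.58-fold the floor, and *Bmp7* rose by 2.49 ± 0.84 in TFs/TFc. Of 7 ligands tested from the list of 11, 3 were called higher in HFs/HFc and 1 lower, 1 and 2 in KFs/KFc, and 2 and 1 in TFs/TFc. Among all genes tested 27.7%, 22.6% and 16.5% were called there. When KFs replicate 3 was left out, the falls in KFs/KFc were 2.32 ± 0.26 for *Gdf6* and 5.27 ± 0.81 for *Bmp8a*. HFs replicate 2 held the highest *Bmp7* of HFs, at 1.06 CPM against 0.240 and 0.342.

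Among the receptors, *Eng*, the co-receptor that works with ALK1, was highest in heart fibroblasts like *Acvrl1*. It was 498 to 511 CPM in HFc, 72.2 to 79.5 CPM in KFc and 30.4 to 37.3 CPM in TFc. *Eng* fell by 1.59 ± 0.24 in HFs/HFc and by 1.47 ± 0.24 in KFs/KFc, where *Acvrl1* had log2 fold changes of -0.84 and 0.33. The co-receptor *Rgma* rose by 1.76 ± 0.30 in KFs/KFc and by 2.05 ± 0.30 in TFs/TFc, and the type II receptor *Acvr2b* rose by 1.81 ± 0.56 in KFs/KFc but had a log2 fold change of 1.01 ± 0.54 without KFs replicate 3. In KFs/KFc without that library *Eng* fell by 1.18 ± 0.09 and *Rgma* rose by 2.02 ± 0.25. The main BMP receptors *Bmpr1a* and *Bmpr2* lay between -0.02 and 0.44. The type I receptor *Bmpr1b* was lower in heart, at a mean of 1.28 CPM in HFs against 38.1 CPM in TFs.

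Among the extracellular modulators, *Fst*, which encodes the activin and BMP binder follistatin, fell by 1.64 ± 0.19 in KFs/KFc and by 1.72 ± 0.20 in TFs/TFc, with 0.17 ± 0.19 in HFs/HFc. *Chrdl1*, a chordin-like antagonist, was at 10.9 to 13.0 CPM in TFc and at a single count in HFc, and reached 1.14 to 1.75 CPM in HFs. *Kcp* and *Sostdc1*, both antagonists or modulators known from the kidney, had higher levels after transplantation. *Kcp* rose by 2.27 ± 0.36 in HFs/HFc and by 1.49 ± 0.35 in KFs/KFc. *Sostdc1* was at 0 in HFc and at 0.0601 to 0.881 CPM in HFs, where the group mean was 4.54-fold the floor. HFs replicate 1 held 1 count of *Sostdc1*, under the floor of 3 counts, and so did not differ from HFc. HFs replicate 2, the library highest in proximal tubule markers, held the most *Sostdc1*, with 20 counts against 18 in HFs replicate 3. In KFs/KFc *Fst* fell by 1.94 ± 0.18 and *Kcp* rose 2.29-fold without KFs replicate 3. The 10 proximal tubule markers summed to between 14.3 and 102 CPM in cultured and between 55.6 and 1177 CPM in transplanted libraries, of which HFs replicate 2 was the highest, and the 8 distal nephron and collecting duct markers to at most 0.365 and at least 12.8 CPM. *Umod*, *Calb1*, *Scnn1b*, *Atp6v1g3* and *Kcnj1*, of the latter list, were at 0 in all cultured libraries. The part of tubule RNA in the changes of *Bmp7*, *Kcp* and *Sostdc1* was not tested.

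**Figure D5:**
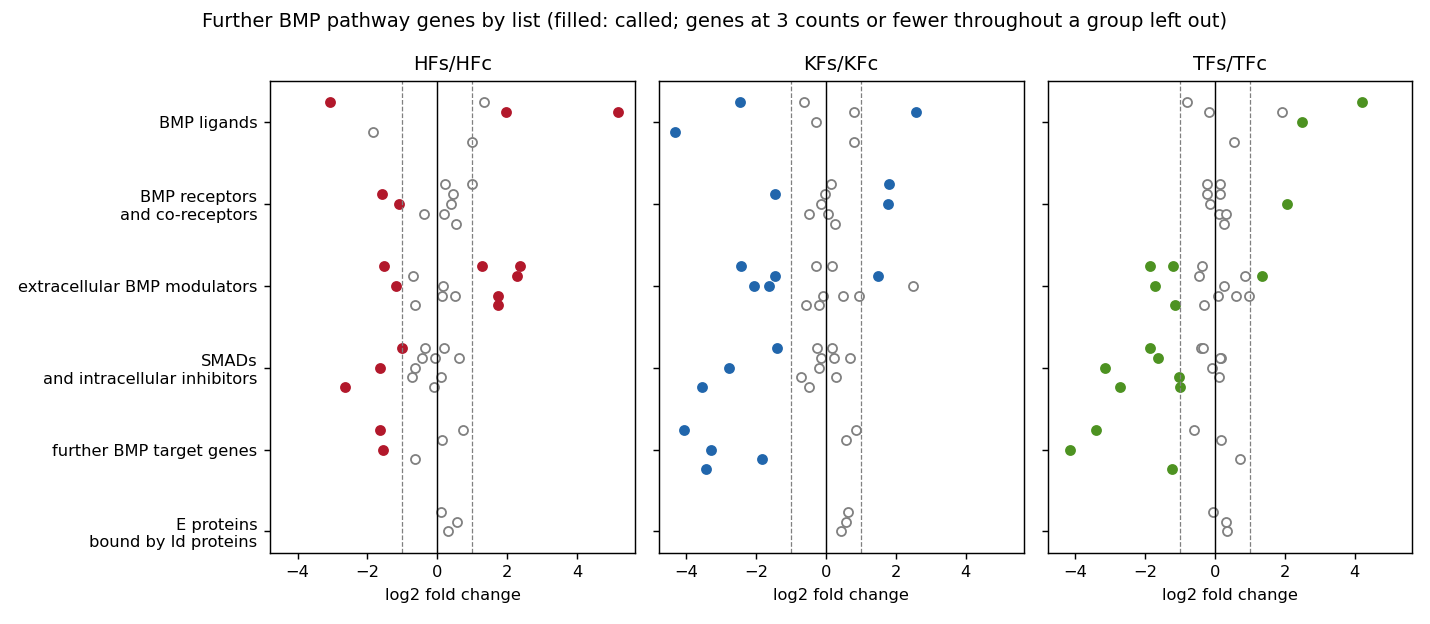
Log2 fold change of the further pathway genes in the 3 transplant comparisons, by list, with filled points for called genes and dashed lines at 1 in either direction. Genes at 3 counts or fewer in every library of a group are left out, which leaves 47 genes in HFs/HFc, 50 in KFs/KFc and 49 in TFs/TFc. Called SMADs, inhibitors and target genes all lie to the left of the lower line, while ligands and extracellular modulators lie on both sides.

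Across the 18 libraries the pattern of *Id3* was most like that of *Atoh8* (Pearson r = 0.991 on log2 CPM), followed by *Ehd3* (r = 0.972) and *Ormdl3* (r = 0.972). *Id1* was most like *Ikbkg* (r = 0.984), *Id2* like *Tax1bp1* (r = 0.944), *Acvrl1* like *Synpo* (r = 0.982) and *Bmp6* like *Tnnt2* (r = 0.961). For *Grem1* the nearest gene was *Sh3kbp1* (r = 0.965), for *Nog* *Aagab* (r = 0.952), for *Bmp4* *Sync* (r = 0.941) and for *Bmp2* *Smad3* (r = 0.899). Among the 9 genes themselves the highest values were 0.901 for *Bmp4* with *Id2*, 0.858 for *Bmp4* with *Bmp6* and 0.856 for *Nog* with *Id1*, and the lowest was -0.902 for *Grem1* with *Acvrl1*. These correlations describe 18 libraries that differ in sequencing depth and fall into 6 groups, whose differences many genes share. They include KFs replicate 3, which set the KFs mean of *Bmp4*, and no test was made of them. Per kilobase of exon, *Acvrl1* at 55.3 and *Bmp4* at 42.2 CPM led the ligands, antagonists and receptor in HFc, while *Grem1* at 52.0 in KFc and 43.8 in TFc led in the other cultured groups.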

How the data were processed

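Total RNA libraries of transplanted, sorted and of cultured fibroblasts were prepared with a stranded low-input kit and sequenced as single reads of 75 bases, per the labels. The authors trimmed reads at a quality score of 30, aligned them to GRCm38 with Bowtie2 (v2.2.0) inside RSEM (v1.2.12) with the setting for reverse-stranded reads, and deposited expected counts per gene in 1 table. The submitters' processing notes name the genome build mm9, so coordinates here are those of GENCODE mouse release 21 on GRCm38 and were not read from the deposited table. The deposited expected counts are whole numbers. They summed to 17927838 to 32245168 per library, and a floor of 3 counts was used as the limit of detection, which covers counting error only.

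All 18 libraries were fitted with 1 mean per group in edgeR (v4.0.16, R v4.3.3) by the quasi-likelihood test, after TMM normalization and the filter on low counts of edgeR, and p-values were adjusted by Benjamini-Hochberg over 16577 genes. The 3 transplant comparisons used an adjusted p under 0.05 and a log2 fold change beyond 1, and the 6 organ comparisons and 3 differences of response an adjusted p under 0.05. SEs were derived from the F statistic. The 9 genes and the lists were chosen with earlier results of these data known. Beside the 9 genes, up to 3 higher and 3 lower pathway genes per comparison, by fold change among called genes whose groups did not overlap, were eligible to be named, with the 3 genes most correlated with each of the 9, and further genes are said to be named after their values were seen. Alternatives were DESeq2 (v1.42.0), its size factors, no filter, replicate number as a block, a separate fit of each comparison, other thresholds and leaving out each library in turn. A further alternative, without KFs replicate 3 and HFs replicate 2, was chosen after seeing the data. On simulated counts for HFs/HFc, 183 of 200 genes changed 4-fold were recovered, with 4 false calls, among 16162 genes. These counts were drawn from the spread estimated by the fit itself, and genes with few counts in HFc were not changed. The simulation therefore checks that the code runs as meant, and does not give the error rates for these libraries or for genes with few counts.

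Libraries are replicates by their labels, which do not say that each came from a separate animal, so p-values measure the spread between these libraries. Replicates of a group differed beyond sampling noise in every pair (chi-square per gene 4.74 to 258), so none was merged. The 1317 rows whose gene identifier matched no symbol held 0.277% of the counts and stayed in the fit.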

Additional observations from a re-analysis of the deposited data

Results flagged for a closer look

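For 4 of the 9 genes, differences between the transplant responses of 2 organs passed edgeR's quasi-likelihood test of the difference itself, at an adjusted p under 0.05. For *Grem1* the log2 fold change after transplantation was higher in heart than in tail fibroblasts by 4.50 and higher than in kidney fibroblasts by 4.24, from a level of 0.444 CPM in HFc. At that level a fall as large as in kidney or tail fibroblasts could not have been measured. For *Acvrl1* the heart response was below that of tail by -1.84 and below that of kidney by -1.17. For *Id3* it was above that of tail by 1.37 and above that of kidney by 1.35. For *Id2* the kidney response was below that of tail by -1.12, and the heart response was above that of kidney by 0.75. All of these kept their direction and their call without KFs replicate 3.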

How the results depend on the processing

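Leaving out KFs replicate 3 changed the counts of called genes most. Over the fits that leave out 1 library each, the genes called of the 9 ran from 3 to 6 in KFc/TFc, from 1 to 7 in KFs/TFs, and from 3 to 6, 1 to 5 and 3 to 8 for the heart and tail, kidney and tail, and heart and kidney responses, with the highest value of each without KFs replicate 3. The share of all genes called was higher there too. With all libraries it was 36.4%, 29.1%, 22.8%, 11.1% and 26.2% in these comparisons. Without KFs replicate 3 it was 43.8%, 35.1%, 32.3%, 21.4% and 35.2%. For *Bmp4* the difference between the heart and kidney responses ran from -0.54 to 3.03, reversing without KFs replicate 3, and was 2.56 with KFs replicate 3 and HFs replicate 2 both left out. With both left out the counts were 6 in KFc/TFc, 7 in HFc/KFc, 7 in KFs/TFs, and 6, 6 and 9 for the responses in the same order. The share of all genes called in that fit is not given, so these counts describe the fit and not the 9 genes in particular. KFs/TFs gave 1 without most single libraries, since the call of *Id1* there (edgeR adjusted p = 0.0499) was lost in 14 of the 18 fits. The call of *Nog* in HFs/TFs was lost in 12, that of *Id1* in HFs/KFs in 11 and that of *Acvrl1* in TFs/TFc in 6. *Bmp4* lost its call in HFc/KFc without any 1 of the KFc libraries and in HFs/KFs without HFs replicate 2, KFs replicate 1 or KFs replicate 2, and *Id2* its heart and kidney difference without HFc replicate 2 or KFc replicate 3.

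Fitting only the groups compared gave 8 genes called in HFc/TFc, 7 in KFc/TFc, 7 in HFc/KFc, 0 in KFs/TFs, 3 in HFs/KFs and 6 for the heart and tail responses. In KFs/TFs that edgeR fit had 1 gene at an unadjusted p under 0.05. DESeq2 called 4 in KFs/TFs and 3 for the kidney and tail responses, and gave *Bmp4* no adjusted p. The shares of all genes called in the separate fits and in DESeq2 are not given either. A log2 fold change limit of 1 left 0 genes in KFs/TFs, where edgeR had 4 at an unadjusted p under 0.05. By adjusted p alone 7 of the 9 genes were called in HFs/HFc, and 34 and 29 pathway genes in HFs/HFc and TFs/TFc, where 56.4% and 38.8% of all genes were called. The labels do not say whether same-numbered libraries come from 1 preparation of cells. Correlations of their deviations ran from -0.139 to 0.0792, and all 6 libraries correlated best with their own number only in HFc/KFc. With 3 libraries in a group such correlations cannot decide whether the libraries are paired. With the replicate block 2 genes were called for the kidney and tail responses, and 106 of the 108 results kept their direction and side of the threshold. The share of all genes called with the block is not given, so that count describes the fit and not the 9 genes in particular. Genes with few counts, such as *Nog* and *Bmp2*, are limited by depth.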
